A study of Mus musculus with 386 samples.

Results

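Oocytes of the same postnatal age were ordered by how much RNA their libraries held relative to an added RNA standard, and the ends of that order were compared across all genes. Single mouse female germ cells had been picked by hand from dissociated ovaries before birth (E17.5, in embryonic days) and at 2 ages after birth (P2.5 and P6.5, in postnatal days), and each was made into its own Smart-seq2 library, a full-length method that copies polyadenylated RNA. The series held 386 libraries, 22 of them from E17.5, 47 from P6.5 and all the others from P2.5. The labels gave no strain, genotype, treatment or animal, so all cells of an age were treated as 1 sample with no replicate animals, and no p-value is given. ERCC spike-ins, a set of 92 synthetic RNAs, were among the counted rows. For each P2.5 library the counts on all mouse genes were divided by the counts on the spike-ins. The 79 P2.5 libraries with the lowest ratios (25% of the age, called low-ratio here) were set against the 79 with the highest (high-ratio). The ratio chose the cells, so the difference in the ratio itself is a description of the choice.

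The P2.5 ovary is the place where germ cells become enclosed in primordial follicles. Most of these oocytes rest, held back by FOXO3 downstream of the KIT receptor, while some begin to grow. Growing oocytes enlarge many times over, accumulate RNA and ribosomes, secrete the zona pellucida (the egg coat) and store the maternal proteins of the subcortical complex that the early embryo needs. With a fixed amount of spike-in per cell, counts on genes relative to counts on spike-ins would follow the amount of polyadenylated RNA in the cell. No source used here gives the amount added per cell, and cell size was not measured.

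The ratio ran from 65.8 to 2311 gene counts per spike-in count over all P2.5 libraries, with a median of 465. It had a median of 231.1 in the low-ratio and 1008 in the high-ratio libraries, a 4.36-fold gap. At the edges of the choice the values were continuous: the last low-ratio library was at 305.4 and the first outside at 305.7, while the first high-ratio library was at 750.05 and the last outside at 747.0. The ages framed this range. At E17.5 the ratio ran from 16.6 to 143.2 with a median of 81.3, and at P6.5 it ran from 1885 to 6788 with a median of 3203. The highest P2.5 oocytes therefore overlapped the lowest P6.5 oocytes, and the lowest P2.5 oocytes overlapped the E17.5 cells.

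Both terms of the ratio moved between the sets. Gene counts per library had a lowest value of 435560, a median of 4632563 and a highest of 18352215 in the low-ratio libraries, against 3633877, 7643035 and 23982709 in the high-ratio libraries. Spike-in counts per library had a lowest value of 2013, a median of 23098 and a highest of 72272 in the low-ratio cells, against 3145, 7490 and 24385 in the high-ratio cells. The distributions of both terms overlapped between the sets. Over all P2.5 cells the ratio rose with gene counts (Spearman rank correlation 0.41 over the cells, whose ratio is made of the same counts) and fell with spike-in counts (-0.55).

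Some libraries were near-identical in pairs and may hold the same cell more than once, which the labels do not say. In 24 pairs of P2.5 libraries the counts differed little, with a median chi-square per gene of 0.686 to 1.03. The next closest pair stood at 2.31, and 300 random pairs had a lowest value of 5.86. Whether the pairs differed by sampling noise alone was not tested. Each pair was summed and counted as 1 cell wherever both members fell in the same set, which left 72 low-ratio cells and 71 high-ratio cells. The labelled germ cell identity held in every one of them: germ cell markers were seen in 72 of 72 and 71 of 71 cells. This was counted on the sum of 6 markers, Ddx4 and Dazl among them, and not marker by marker. RNA of other cell types was seen in a minority, at 10 or more marker counts after thinning each cell to 100000 counts. Erythroid markers were seen in 12 of 72 lower cells (16.7%, exact 95% interval 8.92 to 27.3) and 1 of 71 upper cells (1.41%, 0.0357 to 7.60), stroma markers in 8 and 4, and granulosa markers in 2 and 4. Those of the surface epithelium were seen in 1 and 3 cells and those of endothelium in 3 and 0 (0 of 71, exact upper bound 5.06%). Mast cell and immune markers were seen in none of either set. These intervals treat the cells as independent draws. Cells of unnamed animals are not replicates, so spread between animals is not covered.

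**Figure D1:**
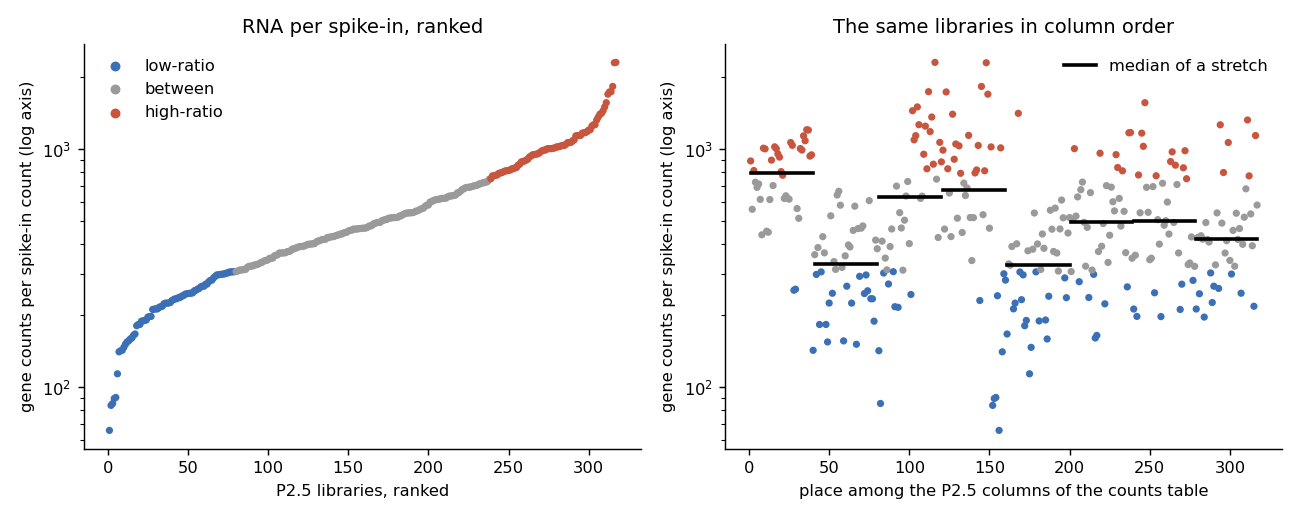
Gene counts per spike-in count (log axis) for each P2.5 library, ranked on the left and in the column order of the deposited counts table on the right. Colours mark the low-ratio and high-ratio libraries and black lines the medians of 8 stretches of consecutive columns, which ran from 327 to 790.

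Relative to the spike-ins, nearly every gene was higher in the high-ratio cells. Of 10791 genes measured (at least 5 CPM, a gene's counts scaled to a total of 1000000, in the sum of either set and seen in at least 3 cells), 10789 had more counts per spike-in count in the high-ratio cells. The whole scale was shifted by 4.89-fold, or 2.29 on the log2 scale, which is the selection seen again in the summed counts. Everything that follows is therefore given as CPM, the share of a cell's gene counts, where that shift is taken out. A gene lower in CPM can still be higher per spike-in: even Tex101, whose CPM ratio was the lowest of the genes named here, stood at 1.13 times its low-ratio value per spike-in.

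As shares of the RNA, the sets were close to each other. CPM of the summed sets had a Pearson correlation of 0.987 across genes on the log2 scale, and 95.8% of genes lay within 1.5-fold. The median log2 ratio, upper over lower, was 0.01, with quartiles of -0.14 and 0.15. In all 458 genes differed by at least 1.5-fold: 2.17% of those measured were higher in the high-ratio cells and 2.08% were lower. At 2-fold, 60 genes were higher (0.556%) and 29 lower (0.269%). Log2 ratios are of CPM plus 0.5, which pulls in the ratios of low genes.

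Many of the higher genes rested on a few cells. In 43.2% of them 3 cells held at least 30% of the high-ratio counts, and 41.9% were also 1.5-fold higher by the median over cells, while for 33.8% the medians pointed the other way. The lower genes were carried by more cells: 3 cells held at least 30% of the low-ratio counts in 25.4% of them. Here the median share held by 3 cells was 23.3%, and 15.3% over all measured genes. Of the lower genes 66.1% were also 1.5-fold lower by the medians, and 5.80% had medians pointing the other way. With all P2.5 libraries cut into 4 equal parts by the ratio, medians rose at each step for 20.1% of the higher genes, against 10.6% of all measured genes, and fell at each step for 43.8% of the lower genes, against 7.16% of all. The end parts that made the calls enter both of these shares.

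**Figure D2:**
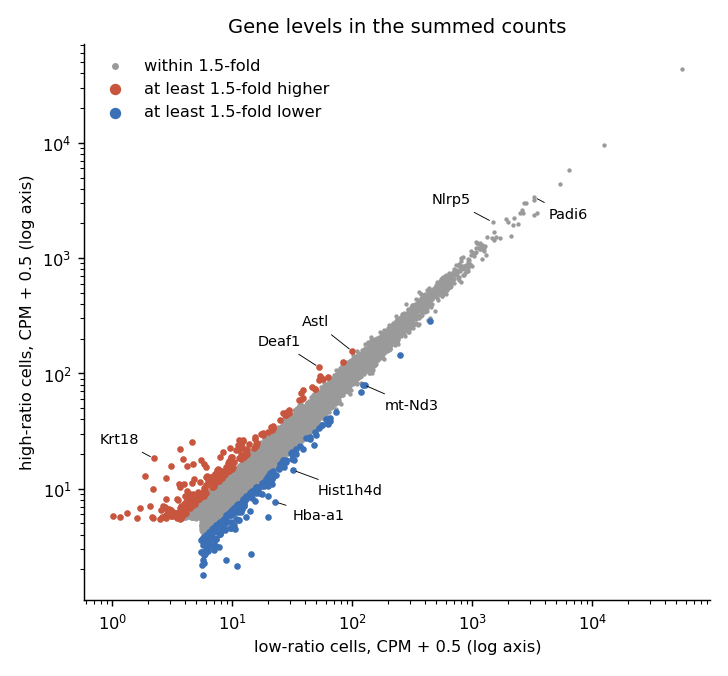
Level of each measured gene in the summed low-ratio cells (x) and high-ratio cells (y), as CPM plus 0.5 on log axes. Grey points are within 1.5-fold; genes at least 1.5-fold higher or lower, 458 in all, are coloured, and most genes lie along the diagonal.

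Genes at both ends were ranked among those of at least 20 CPM in the higher set and seen in at least 50% of its cells. They also had to differ at least 1.5-fold in the same direction in the mean and in the median CPM over cells. Unnamed gene models, pseudogenes and mitochondrially encoded rows were left out. Differing medians of these genes are therefore part of the choice. The highest log2 ratio under these limits was that of Deaf1, which encodes a DNA-binding transcription factor (chromosome 7, 141297180 to 141327690, mm10). Its level was 0 CPM in the lowest, 52.02 in the median and 157.3 in the highest low-ratio cell, and 34.1, 109.2 and 257.1 in the high-ratio cells. The cell distributions overlapped, but the medians climbed through the 4 parts from 52.02 to 63.8, 71.5 and 109.2. In the summed counts Deaf1 went from 52.3 to 112.6 CPM, a log2 ratio of 1.10 (exact 95% counting interval of the log2 ratio without the added 0.5, 1.09 to 1.13). Its rank correlation with RNA per spike-in over all P2.5 cells, 0.43, was the highest of all measured genes. Deaf1 did not follow age in the same way: its median was 58.3 CPM at E17.5 and 28.5 at P6.5, so the P6.5 oocytes, with the most RNA per spike-in, had the lowest median.

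The other 11 of the 12 genes at the upper end had log2 ratios of 0.73 to 1.09 under the same limits. They included the transcription factor genes Ascl2, Gli2 and Zfp143, the proprotein convertase gene Pcsk6, the tropomyosin gene Tpm4 and the MAP kinase phosphatase gene Dusp5. Dusp5 lost its direction when cells were ranked within stretches of the table's columns, described further on (log2 -0.0055 with 8 stretches and -0.076 with 16). Ascl2 had medians of 6.95 CPM in the low-ratio and 12.2 in the high-ratio cells, with 26.7% of its upper counts in 3 cells. Zfp143 had medians of 9.50 and 22.95 CPM and its counts were spread more evenly, with 11.9% in 3 cells. Nlrp4c, an oocyte gene of the NLRP family, had medians of 33.1 and 63.3 CPM (log2 0.75), though reads of its close family members may be split among copies. Yjefn3 (log2 0.86), Slc13a4 (0.73), Itm2a (0.88) and Dcbld1 (0.81) complete the group.

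At the lower end, Dynlt1b, which encodes a dynein light chain, followed the order of the ratio most closely. Its level was 8.97 CPM in the lowest, 30.9 in the median and 60.2 in the highest low-ratio cell, and 5.25, 16.1 and 32.8 in the high-ratio cells. Its medians stepped down through 30.9, 25.4, 19.5 and 16.1 CPM, and its rank correlation of -0.52 with RNA per spike-in was the lowest of all genes. The log2 ratio of the sums was -0.90. Near-identical copies of Dynlt1 exist in the mouse genome, so the split of reads among them is uncertain. The histone gene Hist1h4d stepped down in the same manner, from 28.8 to 18.7, 14.6 and 11.3 CPM (log2 -1.13), with the same caution for its histone H4 copies.

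The rest of the lower group joined regulators and RNA-binding proteins. Id3, which encodes an inhibitor of basic helix-loop-helix transcription factors, went from a median of 93.6 to 49.99 CPM (log2 -0.78). Syce3, a central element protein of the synaptonemal complex that joins paired chromosomes in meiosis, went from 17.9 to 10.3 CPM (log2 -0.79), with a median of 100.5 at E17.5 and 2.51 at P6.5. Tia1 and Ddx23, which encode an RNA-binding protein and a spliceosomal helicase, had log2 ratios of -0.81 and -0.74, the noncoding Snhg11 -0.77, and Tmem39b, Samd10 and Lin54 -0.67, -0.67 and -0.62. Elobl, whose median went from 0 CPM at E17.5 to 1427 at P6.5, had a log2 ratio of -0.99 in the summed sets but medians of only 15.6 and 8.14 CPM, and its ratio turned to 0.50 when cells were ranked within stretches of the table's columns, as described further on.

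Haemoglobin RNA was lower in the high-ratio cells, beside the lower number of cells with erythroid markers. Of 7 listed erythroid markers, the 3 measured were lower in the high-ratio cells: Hba-a1 at log2 -1.56, Hbb-bs at -1.82 and Hbb-bt at -1.65 (2.08% of all genes were lower). A marker that is high in the low-ratio sum alone could be admitted as measured, so this count gives no direction for the other members. Hba-a1 turned to 0.27 with pairs summed before ranking, 0.33 within blocks of label numbers and 0.41 within 16 stretches of columns. The summed level of the 7 erythroid markers per cell was 0.519 CPM in the lowest, 21.8 in the median and 1170 in the highest low-ratio cell, and 0, 3.61 and 393 in the high-ratio cells. At E17.5 the median was 1736 CPM and at P6.5 it was 1.18. In the low-ratio cells 3 cells held 44.9% of the Hba-a1 counts, and in the high-ratio cells 3 cells held 57.5%. Counts of alpha and beta globin copies can be shared between near-identical genes, and the part of blood RNA in these values was not tested.

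Some markers of somatic ovarian cells were higher in the sums, and these values rested on a handful of cells. At least 1.5-fold higher were 3 of 3 measured granulosa markers (14 listed), 1 of 2 of the surface epithelium (6 listed) and 2 of 4 of stroma and theca (8 listed), against 2.17% of all genes. A marker was measured if it reached 5 CPM in the sum of either set, so a high value in 1 set could admit it. These counts therefore give no direction for the whole lists. The 1 endothelial marker measured stood at -0.29, and stroma markers had been seen in more low-ratio than high-ratio cells. Krt18 had a log2 ratio of 3.05, Krt8 of 2.36, Amhr2 of 2.19, Col3a1 of 1.49 and Kitl of 1.11, each higher in the summed high-ratio cells. Yet their medians in the high-ratio cells were 0.200, 0.0854, 0, 0.184 and 0.316 CPM, and 3 cells held 84.8%, 84.6%, 87.96%, 80.7% and 59.4% of their counts. With marker-positive cells left out, the log2 ratios of Amhr2 and Col3a1 turned to -0.56 and -0.26. Within 8 stretches Col3a1 was at -0.27. Of 19 measured immediate early and heat shock genes 4 were higher (2.17% of all genes were) and 1, Nr4a1, was lower (log2 -0.88; 2.08% of all were), and the list's median was -0.06. Ier3 (log2 1.79) and Dusp1 (1.01), 2 of the higher ones, had the same shape, with 73.7% and 53.9% of the upper counts in 3 cells, and Dusp1 had a lower median in the high-ratio cells and a log2 ratio of -0.20 within 8 stretches.

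Transcripts of the mitochondrial genome took a smaller share in oocytes with more RNA per spike-in. All 14 measured genes had log2 CPM ratios below 0, while 52.7% of all genes were above 0. Their median was -0.30 against 0.01 for all genes. Per spike-in all 14 were higher, as were 10789 of all 10791 measured genes. In CPM 1 of the 14 was at least 1.5-fold lower (2.08% of all genes were). That gene, mt-Nd3, a subunit of respiratory complex I, had medians of 113.8 CPM in the low-ratio and 65.1 in the high-ratio cells (log2 -0.63). Its neighbour in function mt-Nd2 had medians of 448 and 252.3 CPM (log2 -0.56), and mt-Co1, the catalytic subunit of cytochrome oxidase, 7464 and 5512 (log2 -0.15). The summed mitochondrial level was 15199 CPM in the lowest, 33649 in the median and 76673 in the highest low-ratio cell, and 13248, 24596 and 75715 in the high-ratio cells. Its medians stepped down over the 4 parts from 33649 to 27661, 25362 and 24596 CPM, with 39350 at E17.5 and 18163 at P6.5. By contrast, the 31 nuclear genes of oxidative phosphorylation had a median log2 ratio of -0.06. None passed 1.5-fold, beside 2.17% higher and 2.08% lower among all genes. Averaging CPM over cells, in place of summing counts, gave the mitochondrial genes a median of -0.58 with 7 of 14 lower (2.92% of all genes were) and 0 higher (2.18% of all were).

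Genes of oocyte growth, the egg coat and oocyte-secreted signals differed little between the lowest and highest 25% of all P2.5 libraries. Of 30 listed genes 26 were measured, with a median log2 ratio of 0.12. At least 1.5-fold higher was 1 (2.17% of all genes were) and 0 were lower (2.08% of all were). Between the lowest and highest 10% of the same order 10 of 26 were higher (7.43% of all genes were) and 0 lower (6.6% of all were). The gene called at 25% was Astl, which encodes ovastacin, the protease that hardens the egg coat after fertilisation. Its medians were 77.4 and 141.1 CPM (log2 0.65), with 490 at P6.5. The zona pellucida genes Zp1, Zp2 and Zp3 had summed levels of 415, 967 and 639 CPM in the low-ratio cells and 526, 1058 and 739 in the high-ratio cells, log2 ratios of 0.34, 0.13 and 0.21. Zp3 ran from 29.5 to 1751 CPM over low-ratio cells and from 34.7 to 2036 over high-ratio cells, so cells of either set covered the same range. The growth factor genes Gdf9 and Bmp15, which act on the surrounding granulosa cells, had log2 ratios of 0.39 and 0.12.

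The difference was small beside the step to P6.5. The summed level of the 30 growth and egg coat genes had medians of 9270, 10006, 8986 and 10406 CPM through the 4 parts, with no steady order, and 34317 at P6.5 against 762 at E17.5. Against the P2.5 libraries outside both sets, P6.5 oocytes had 22 of 28 measured list genes at least 1.5-fold higher (12.7% of all genes were) and 1 lower (20.3% of all genes were), with a median log2 ratio of 1.95. The subcortical maternal complex, whose proteins support the first cell divisions, had 7 measured members and a median of 0.14. Between the low-ratio and high-ratio sets 0 of the 7 passed 1.5-fold either way (2.17% of all genes were higher and 2.08% lower). Within the complex Nlrp5 reached log2 0.48 (medians of 1149 and 1981 CPM), Tle6 0.14 and Padi6, a deiminase of oocyte lattices, 0.06. Ooep was at -0.24 and Zbed3 at -0.21.

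The regulators that hold or release the resting oocyte differed little between the sets. Kit, the receptor for Kit ligand, had summed levels of 1525 CPM in the low-ratio and 1432 in the high-ratio cells, and Foxo3, which encodes the transcription factor that maintains rest, 150.3 and 146.4. Of 28 measured genes of the KIT, PI3K, mTOR and FOXO pathway 0 passed 1.5-fold, with a median of 0.04. Among all genes 2.17% were higher and 2.08% lower. The range of the pathway ran from Pik3cb, a catalytic subunit of PI3K, at log2 -0.41 to Akt1, the kinase that inactivates FOXO3, at 0.46. Cdkn1b, an inhibitor of the cell cycle, was at -0.32. Among 15 oocyte transcription regulators 0 passed either way. Nobox, which switches on many oocyte genes, was the highest of the oocyte-specific ones, at 798 and 1006 CPM (log2 0.33), and Figla (0.00), Lhx8 (0.01), Sohlh1 (0.16) and Tbpl2 (0.13) were close to even.

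Genes of RNA and protein synthesis gave few calls, beside 2.17% higher and 2.08% lower among all genes. At those shares lists of this size hold few calls in any case. None of 82 ribosomal protein genes passed 1.5-fold, with a median of -0.08 and a range from -0.32 to 0.19 (Rpl4, of the large subunit). None of 30 translation factor genes passed either (median 0.06, highest Eef2 at 0.24, which moves the ribosome along the message), nor any of 35 genes of ribosome biogenesis (median 0.02) or 29 of RNA polymerase II (median -0.02). Polr2a, the polymerase's large subunit, was the lowest of the last group, at 357 and 266.02 CPM (log2 -0.43). Of 33 spliceosome genes 1 was lower, the ubiquitin ligase gene Prpf19 at -0.67, and the median was -0.13. The 31 proteasome genes had 0 calls and a median of 0.08.

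Glycolysis genes had ratios on the other side of 0 from the mitochondrial transcripts. All 17 measured genes had log2 ratios above 0, as had 52.7% of all genes, with a median of 0.24 against 0.01, and 2 were at least 1.5-fold higher (2.17% of all were): Pfkl, a phosphofructokinase subunit, and Ldha, lactate dehydrogenase A. Pfkl had medians of 12.1 and 17.6 CPM (log2 0.77). Ldha reached log2 0.71 only in the sums, with 46.1% of upper counts in 3 cells and medians of 19.96 and 17.2 CPM. Gapdh was almost even at 205.5 and 210.6 CPM. The summed glycolysis level had medians of 4943, 5529, 5409 and 5361 CPM through the 4 parts. The low-ratio median was the lowest, and the other 3 did not follow the order of the ratio. Quartile ranges overlapped, at 4279 to 5402 CPM in the low-ratio and 4923 to 6205 in the high-ratio cells.

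Smaller groups gave scattered calls, beside 2.17% higher and 2.08% lower among all genes. Of 22 cholesterol and lipid synthesis genes 2 were higher, among them the fatty acid synthase gene Fasn (log2 0.87, medians of 4.66 and 9.19 CPM). Of 23 autophagy genes 1 was higher, the initiating kinase gene Ulk1 (medians of 19.7 and 32.02 CPM, log2 0.69), and the list's median was 0.16. Of 18 integrated stress response genes 0 passed, with Hspa5, the chaperone of the endoplasmic reticulum, at 0.49. Of 32 meiotic prophase genes 1 was higher (Ccdc36, log2 0.59) and 1 lower (Syce3), with a median of -0.09. Of 18 piRNA and germ granule genes 2 were lower, Tex101 at -1.87 and Piwil1 at -1.13, both low in CPM (8.36 and 13.6 in the low-ratio cells). In Tex101 3 cells held 66.96% of the lower counts. The 9 DNA methylation genes had 0 calls, with Trim28 at 0.42 and Dnmt3a at 0.34.

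**Figure D3:**
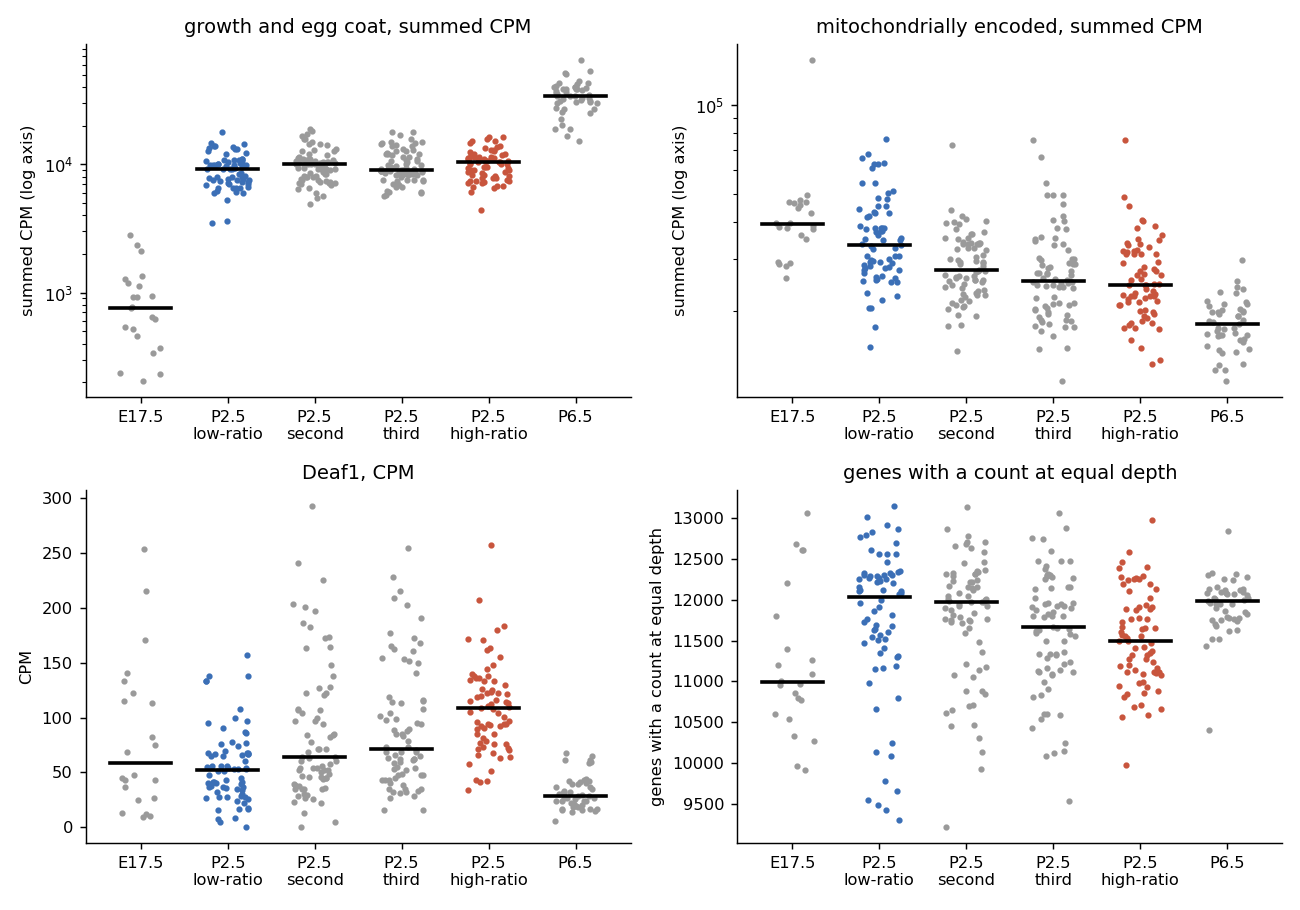
Values per cell at E17.5, in the 4 P2.5 parts and at P6.5: summed CPM of the 30 egg coat and growth genes and of mitochondrially encoded genes (log axes), Deaf1 CPM, and the number of genes with a count at 400000 counts per cell. Points are cells and black lines medians; the Deaf1 medians of the P2.5 parts climb from 52.02 to 109.2 CPM, and the mitochondrial medians step down from 33649 to 24596.

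The high-ratio cells did not show more genes per cell. Cells had a median of 16174 genes with a count in the low-ratio and 15023 in the high-ratio cells, at their own depths. Thinned to 400000 counts per cell, which every one of these cells reached, the medians were 12035, 11968, 11662 and 11494 through the 4 parts, with wide overlap (9298 to 13149 in the low-ratio and 9979 to 12975 in the high-ratio cells). The share of counts on the 100 highest genes had medians of 19.6% and 19.1%.

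Cell states marked by other genes were found in both sets. Summed CPM of 7 synaptonemal complex genes had medians of 1428 in the low-ratio and 1244 in the high-ratio cells, and that of 8 immediate early genes 484 and 453. Nxf2, Taf7l and Tex19.2 together had medians of 40.8 and 28.6 CPM, and Platr14, Pou4f1 and Mylpf 74.4 and 62.7. In each case the quartile ranges overlapped.

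The ratio was not evenly spread over the deposited table. In the column order of the counts table, 8 stretches of 39 or 40 consecutive P2.5 columns had median ratios of 790, 328, 627, 670, 327, 492, 500 and 417. They supplied 21, 0, 15, 18, 1, 7, 11 and 6 libraries to the high-ratio set and 3, 18, 8, 9, 17, 7, 7 and 10 to the low-ratio set. Median spike-in counts followed: 24596 and 23998 in the second and the fifth stretch, against 8217 to 14471 in the others. Cut by the number in the library's label instead, 8 blocks had medians of 411 to 546. The labels do not say what the column order stands for. The pooled sets therefore compare stretches as well as cells, and the same comparison was repeated with the lowest and highest 25% taken inside each stretch. This ranking was added after the data had been seen.

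Within stretches, 344 of 10812 genes were at least 1.5-fold higher (3.18%) and 347 lower (3.21%). Of the genes higher in the pooled ranking 46.6% were called again, and of the lower genes 52.7%; 89.3% and 94.2% had the same sign. The cells compared had median ratios of 231.1 and 1004 over all stretches. Inside the stretches the high-ratio median was 2.34 to 6.83 times the low-ratio median, under the pooled 4.36 in 6 of 8, and across stretches the sets overlapped (low-ratio cells up to 613.2, high-ratio cells from 443.8). The stretches do not hold wholly separate cells: 12 of the 24 near-identical pairs had their libraries in different stretches.

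More growth and egg coat genes were called in this ranking than in the pooled one. Of the 26 measured, 10 were at least 1.5-fold higher (3.18% of all genes were) and 0 lower (3.21% of all were). Their median log2 ratio was 0.40 against 0.12 in the pooled ranking. Npm2, a histone chaperone of the egg, had medians of 60.8 CPM in the 71 low-ratio cells and 146.6 in the 72 high-ratio cells, and summed levels of 99.1 and 232.2 (log2 1.22). Its pooled log2 ratio had been 0.15. Zp3 had medians of 398 and 729 CPM (log2 0.84), Zp1 285.3 and 519 (0.69), and Gdf9 279.4 and 429 (0.78). Nlrp14 reached log2 0.93, Astl 1.05, Bmp15 0.59, Kpna7 0.90, E330034G19Rik 1.03 and Pla2g4c 0.77. Cells overlapped for every one of these genes. Zp2 (0.42), Padi6 (0.50) and Nlrp5 (0.39) stayed under 1.5-fold, and Uchl1 (-0.06), Gja4 (-0.06) and Ooep (-0.39) were not higher.

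Summed per cell, the 30 growth and egg coat genes were higher in the upper cells in 8 of 8 stretches, and again in 8 of 8 with each cell of those 12 pairs kept in 1 stretch, where 9 of 26 genes were called (median 0.35). Their medians went from 7944 to 11472 CPM in the first stretch, from 10048 to 13407 in the second and from 7257 to 11363 in the third. The fourth (8398 and 11047) and the seventh (7654 and 10495) had clear steps in the same direction. Steps were small in the eighth (8078 and 8971), the sixth (9975 and 10547) and the fifth (9644 and 9957). Over all stretches the medians were 8362 and 11000 CPM, and ranges overlapped (3484 to 17898 and 5650 to 18016). The rank correlation between the summed level and the ratio was 0.16 to 0.60 inside the stretches, with 28 to 40 cells each, and 0.16 over all P2.5 cells. The number of stretches mattered: with 4 stretches 1 growth gene was called (median 0.24) and with 16 stretches 10 were (median 0.37). Of the other rankings tried, the end 10% of the pooled order at either side gave 10 (median 0.39), whereas the lower against the upper 50% of the order, sets taken inside depth groups and inside label-number blocks gave 0 (medians -0.02, -0.02 and 0.03).

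**Figure D4:**
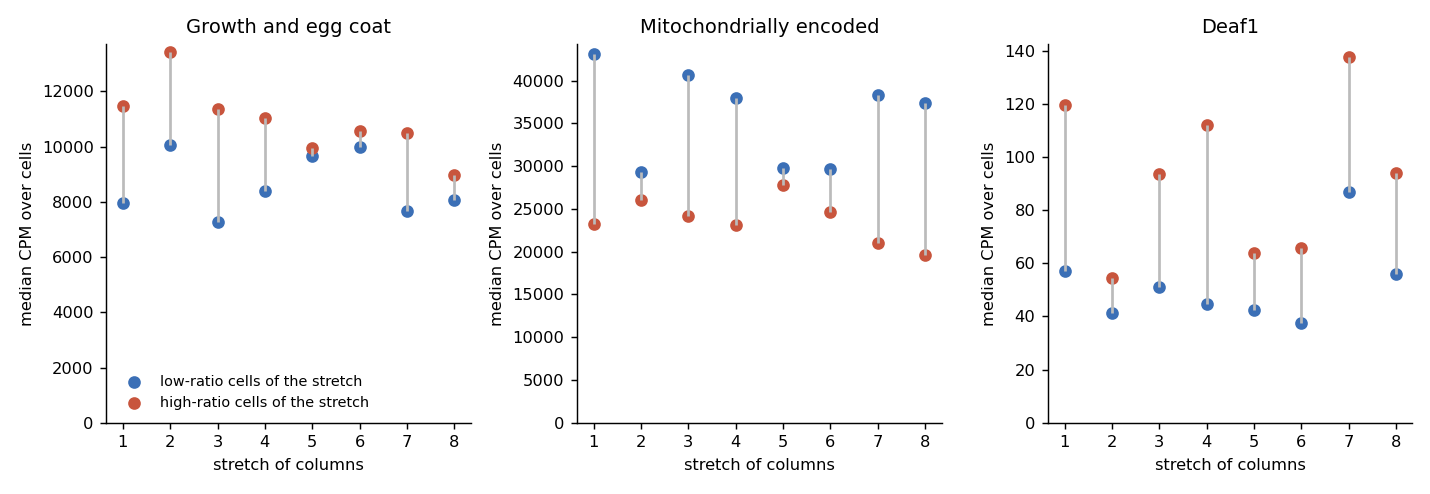
Median CPM over the low-ratio and high-ratio cells taken inside each of 8 stretches of columns, for the summed growth and egg coat genes, the summed mitochondrially encoded genes and Deaf1. Axes start at 0; grey lines join the sets of a stretch. The growth and Deaf1 values are higher in the high-ratio cells in 8 of 8 stretches and the mitochondrial values in 0 of 8.

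The mitochondrial, Deaf1 and maternal complex values took the same side as in the pooled ranking. Mitochondrially encoded genes had a median log2 ratio of -0.46, with 5 of 14 at least 1.5-fold lower (3.21% of all genes were), and the summed level was lower in the upper cells in 8 of 8 stretches (medians of 35508 and 24630 CPM over all stretches). The ribosomal RNAs mt-Rnr1 and mt-Rnr2 were among the 5, at -0.77 and -0.62. Deaf1 was higher in 8 of 8 stretches, from medians of 52.9 to 93.1 CPM and log2 0.67, less than its 1.10 in the pooled ranking. Its level also differed between stretches, with medians over all cells from 43.6 CPM in the second to 115.2 in the seventh. The subcortical maternal complex had a median log2 ratio of 0.34 and was higher in 7 of 8 stretches, the sixth being the exception (8764 and 7800 CPM). With each cell kept in 1 stretch, the mitochondrial level was lower in all but 1 of the 8 stretches, the maternal complex was higher in 6 and Deaf1 in 8. Khdc3, a KH-domain member of the complex, had a log2 ratio of 0.94 at 8.15 and 16.1 CPM.

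**Figure D5:**
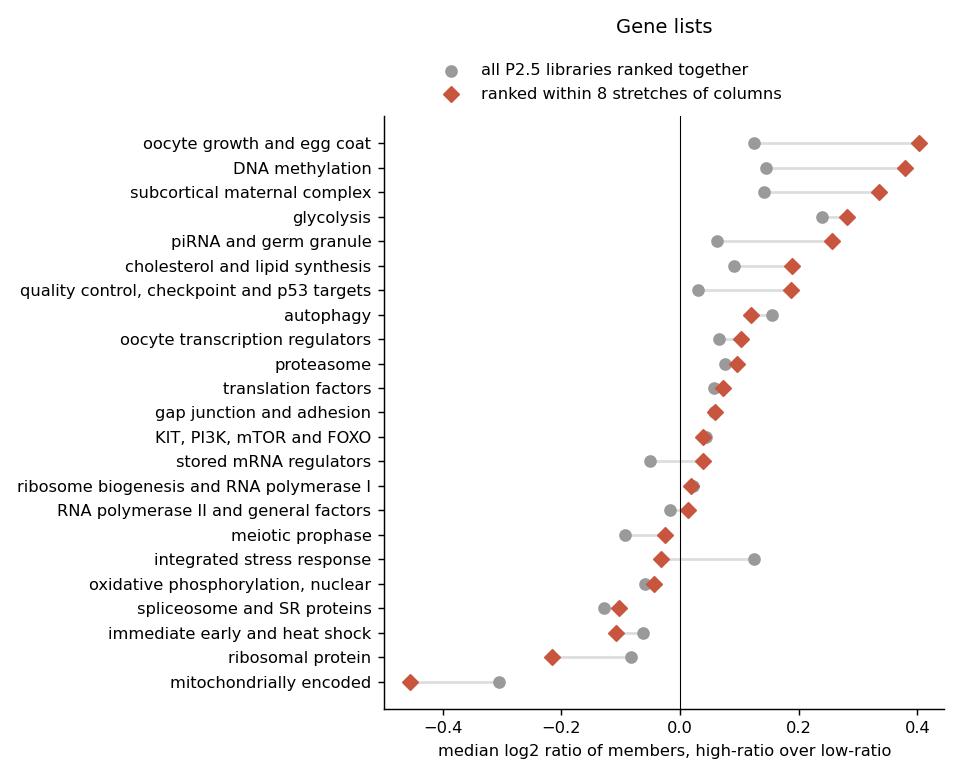
Median log2 CPM ratio, high-ratio over low-ratio cells, of the measured members of each gene list, with all P2.5 libraries ranked together (grey circles) and ranked within 8 stretches of columns (red diamonds). Marker lists are not drawn; among the pathway lists mitochondrially encoded genes lie lowest in both (-0.30 and -0.46), and growth and egg coat genes move from 0.12 to 0.40.

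The genes called within the P2.5 age were set against the difference between P6.5 oocytes and the P2.5 libraries in neither set; no library was in both comparisons, though 1 near-identical pair in the pooled ranking and 2 within stretches had a library in each. With the ranking inside stretches, 49.2% of the higher genes measured in both comparisons were also at least 1.5-fold higher at P6.5, where 10.4% of all genes were, and they made up 14.2% of the genes higher at P6.5. Of the lower genes 55.3% were lower at P6.5, against 21.1% of all genes, and they made up 6.50% of that list. Opposite directions were met by 17.98% of the higher genes and 6.87% of the lower genes. The pooled ranking gave another picture: 23.3% of its higher genes were higher at P6.5 and 38.7% were lower, while 36% of its lower genes were lower and 25.7% higher, against 10.2% higher and 20.9% lower among all genes. The 38 genes higher in both made up 3.56% of the genes higher at P6.5, and the 63 lower in both 2.87% of those lower. The part of the column order in these values was not tested beyond the rankings given.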

How the data were processed

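The counts table deposited by the authors holds whole-number read counts for 54658 genes and 92 spike-ins, and a second deposited table holds FPKM, used only as an alternative. The submitters' processing notes name STAR 2.7.10b, HTSeq 0.13.5, RSEM 1.3.3 and mm10; the sources used here do not say what each did, which annotation was used, whether strand was used or what was filtered. Samples were grouped by the stage label; the 317 P2.5 libraries came to 293 cells once near-identical pairs were joined. Counts of the 25% with the lowest and of the 25% with the highest ratios were each summed and scaled to CPM, and genes that reached 5 CPM in one sum or the other and had counts in 3 or more cells were compared as log2 of the CPM plus 0.5. A call is a 1.5-fold difference; some counts of genes are given as shares of the genes measured or called. Exact intervals are conditional Poisson (ratios) or Clopper-Pearson (shares) at 95%. Those of ratios treat reads as independent counts, although reads carry no molecular identifiers and copies of a molecule may be counted more than once. Those of shares treat cells as independent draws. Neither covers spread between animals. Because cells are not replicates and no animal is named, no test was run. The rule for named genes took the 12 highest and 12 lowest ratios, the 2 ends of each gene list, and a set of oocyte genes. The first 2 groups came from genes of at least 20 CPM and seen in at least 50% of cells of the higher set. Their mean and median CPM over cells also had to differ 1.5-fold in the same direction. Unnamed gene models, pseudogenes and mitochondrially encoded rows were left out of those groups. The rule gave 145 genes. Some items are not reported here. The text gives a part of those named genes, chosen after values were seen, and adds growth, maternal complex and mitochondrial list members for the ranking within stretches. The members, gene lists and rules were chosen with earlier results of these data known. The ranking within stretches followed an exploratory look at the ratio in blocks of the column order. Gene positions are from GENCODE M21. The comparison was tested on simulated counts. Python 3.11.15, numpy 2.4.6, pandas 2.3.3, scipy 1.17.1 and matplotlib 3.10.9 were used.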

Additional observations from a re-analysis of the deposited data

How the results depend on the processing

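The shares of measured genes at least 1.5-fold higher (2.17%) and lower (2.08%) and the number of growth and egg coat genes higher (1) moved as follows. Per spike-in they were 99.95%, 0% and 26, which follows from raising every gene's high-ratio level by the same 4.89-fold. For the other settings the cause was not tested. Mean FPKM over cells gave 1.53% higher, and median CPM over cells gave 5.67%, 1.49% and 3. A minimum of 1 CPM gave 5.04% and 5.15%, no minimum 4.09% and 4.25%, and a 2-fold threshold 0.556%, 0.269% and 0. The end 10% on each side gave 7.43%, 6.60% and 10, and the lower against the upper 50% gave 0.600%, 0.441% and 0. Ranking within label-number blocks and within depth groups each gave 0 growth genes. Ranking within 8 stretches gave 3.21% lower and 10 growth genes; with marker-positive cells also left out it gave 3.37%, 3.56% and 10, and 16 stretches gave 3.85%, 3.43% and 10. With 8 stretches and each cell in 1 of them, 3.17% were lower and 9 growth genes were higher. The stretch rankings were chosen after seeing the data. The scaling of the edgeR type (trimmed mean of M-values) shifted all log2 ratios by -0.01. It kept 93.6% of the main higher calls and 100% of the lower calls. Other settings kept fewer of the same genes, higher and lower in turn. Mean FPKM kept 31.6% and 25%, median CPM 33.3% and 25.9%, and mean CPM 68.8% and 66.1%. Depth groups kept 52.1% and 55.8%, and leaving out marker-positive cells kept 51.7% and 77.7%.

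Directions turned for the following genes, as log2 ratios. The turns per spike-in count follow from the scaling, which raises every gene's high-ratio level by the same 4.89-fold. Per spike-in count the genes were Hba-a1 0.66, Hist1h4d 1.12, Elobl 1.27, Dynlt1b 1.36, Tia1 1.44, Syce3 1.45, Id3 1.497, Snhg11 1.501, Ddx23 1.52, Tmem39b 1.61, Samd10 1.60, Lin54 1.64, Hbb-bs 0.36, Hbb-bt 0.27, mt-Nd3 1.65, Piwil1 1.06, Tex101 0.16, Prpf19 1.59 and Nr4a1 1.22. By median CPM over cells they were Ldha -0.21, Krt8 -0.63, Kitl -0.59, Col3a1 -1.03 and Dusp1 -0.87. Hba-a1 was at 0.27 with pairs summed before ranking and at 0.33 within label-number blocks. Col3a1 was at -0.59 with the end 10%, and Amhr2 at -0.56 and Col3a1 at -0.26 without marker-positive cells. Within 8 stretches Dusp5 was at -0.0055, Elobl at 0.50, Col3a1 at -0.27 and Dusp1 at -0.20. With marker-positive cells also left out, Dusp5 was at -0.14, Elobl 0.50, Krt18 -0.56, Krt8 -0.72, Amhr2 -0.89, Kitl -0.10, Col3a1 -1.05, Ier3 -0.38 and Dusp1 -0.33. Col3a1 was at -0.20 within 4 stretches. Within 16 stretches Dusp5 was at -0.076, Hba-a1 0.41, Elobl 0.60, Col3a1 -0.38 and Dusp1 -0.50. With 8 stretches and each cell in 1 of them, Dusp5 was at -0.013, Elobl 0.40, Col3a1 -0.25 and Dusp1 -0.17.

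No paired analysis was possible because the numbers in the labels name cells, not shared animals, and no result comes from a test; the rankings within stretches are grouped by column order, not by those numbers. Spike-in counts were at least 2013 per low- or high-ratio library. Reads carry no molecular identifiers, so these counts do not give the precision of the ratio, which was not measured. The number of different spike-in RNAs seen had a median of 34.5 (lowest 18) in low-ratio and 23 (lowest 15) in high-ratio cells. The ratio also assumes an equal amount of spike-in added to each cell. Libraries are single cells of unnamed animals, so spread between animals is unknown. The column order could not be tied to a batch by the labels.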
